A study of Oryza sativa with 6 samples.

Results

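The 7 genes described here are 6 rice cellulose synthase genes assigned to the primary wall (CESA1, CESA3, CESA8, CESA2, CESA5 and CESA6) and CSLF6, a cellulose synthase-like gene. They were picked by locus identifier, with earlier results of these data known, and are 7 of 56962 genes in the deposited count table. All 7 passed the filter on low counts. The data are mRNA sequencing of rice (Oryza sativa) seedling root tips, with 3 libraries of the mutant lad, for which the labels give sr1 as a second name, and 3 libraries of J10, the wild type. Seedlings of both genotypes grew at 25°C, and root ends of 0.5 cm were cut when 6 days had passed since sprouting. No treatment is recorded for either genotype. The labels do not give the locus altered in lad, the kind of allele or the number of plants in a library, so no targeted gene could be read as a check of the labels.

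Cellulose is spun out at the plasma membrane by rosette-shaped complexes whose catalytic subunits are CESA proteins, each of which joins glucose from UDP-glucose into a growing chain. Complexes of the primary wall, the wall laid down while a cell still expands, use other CESA isoforms than complexes of the secondary wall of xylem and fibres, and in Arabidopsis a primary-wall complex needs isoforms of more than 1 class. CSLF6 belongs to a family of grasses and makes mixed-linkage glucan, an unbranched glucose polymer with mixed kinds of bond. This glucan coats cellulose in young grass walls, and rice and barley plants without a working CSLF6 lose most of it. The root tip holds both dividing and expanding cells, so primary walls are being built through much of the sampled tissue.

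The deposited table describes each of the 7 loci as cellulose synthase. All 7 names stand in the RefSeq gene table for rice (assembly ASM3414082v1) on the same chromosome, with a gene span within 34 bases of that in the count table. The coordinates that follow are those of the deposited table, for which the sources used here name no rice genome build. CESA1 is LOC_Os05g08370 (chromosome 5, 4565177 to 4571461, minus strand) and CESA3 is LOC_Os07g24190 (chromosome 7, 13741284 to 13747256, minus strand). CESA8 is LOC_Os07g10770 (chromosome 7, 5852711 to 5858718, minus strand) and CESA2 is LOC_Os03g59340 (chromosome 3, 33780013 to 33786467, minus strand). CESA5 is LOC_Os03g62090 (chromosome 3, 35177572 to 35183423, plus strand) and CESA6 is LOC_Os07g14850 (chromosome 7, 8496189 to 8501906, plus strand). CSLF6 is LOC_Os08g06380 (chromosome 8, 3544163 to 3550661, minus strand). Of these spans, that of CESA2 alone meets another gene, LOC_Os03g59330 on the opposite strand, over 1293 bases. That gene had 5 counts in lad replicate 1 and 0 in each of the other 5 libraries.

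Libraries held 16405022 to 20693114 counts, and a gene of this set had between 151 and 10271 counts in a library. Replicates correlated across genes at a Spearman rho of 0.982 to 0.991, and libraries of different genotypes at 0.885 to 0.925. No replicate pair was as close as counting noise alone would make it, the lowest chi-square divided by its degrees of freedom being 9.44, and J10 replicates 1 and 2 were farthest apart (31.8). Among genes described by domains typical of dividing cells, such as MCM, PCNA and kinesins, 5 of 100 tested were higher and 42 lower in lad, 4 of the 107 listed had 0 counts in all libraries, and their summed level was 3105 to 3379 CPM in lad against 4220 to 4335 CPM in J10. CPM is the count scaled to library size, with TMM factors applied. By the test given below, 24.9% of all tested genes were higher and 20.3% lower in lad. Genes with multicopper oxidase or bifunctional nuclease domains, listed as candidates for lignifying walls and xylem, summed to 829 to 921 CPM in lad against 1154 to 1206 CPM in J10, with 11 of 34 tested genes higher and 14 lower and 6 of 50 listed at 0 in all libraries. Photosystem and Rubisco genes, a sign of green tissue, summed to 23.5 to 30.8 CPM in lad and 22.8 to 24.5 CPM in J10, and 26 of 48 had 0 counts in all libraries. The part of these shifts in the results below was not tested. In bulk tissue, fewer cells of a type and less RNA per cell cannot be told apart.

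In lad root tips CSLF6 fell to 65.1% of its J10 level and CESA6 to 78.0%, while the other 5 genes did not pass the test. The CSLF6 call held under all 15 alternative settings described below, and the CESA6 call was lost under 6 of them. CESA1 and CESA8 averaged 95.7% and 95.4% of J10, and the point estimates of CESA3 and CESA2 were above 0. In all, 0 of 7 genes were higher and 2 lower with 0.05 as the threshold on the Benjamini-Hochberg adjusted p of edgeR's quasi-likelihood test over 22624 genes. Of all tested genes 45.2% were called, 24.9% as higher and 20.3% as lower. The 2 calls, both lower, are 28.6% of the 7 genes, below the 45.2% called in either direction and above the 20.3% called lower. Among the 2137 genes with a mean of at least 100 CPM, the range of 6 of these 7, the share called was 59.2% and the share called lower 41.8%, both above those of the 7 genes. The median log2 fold change was -0.07 for the 7 genes, 0.02 for all tested genes and -0.23 for the genes with at least 100 CPM.

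**Figure D1:**
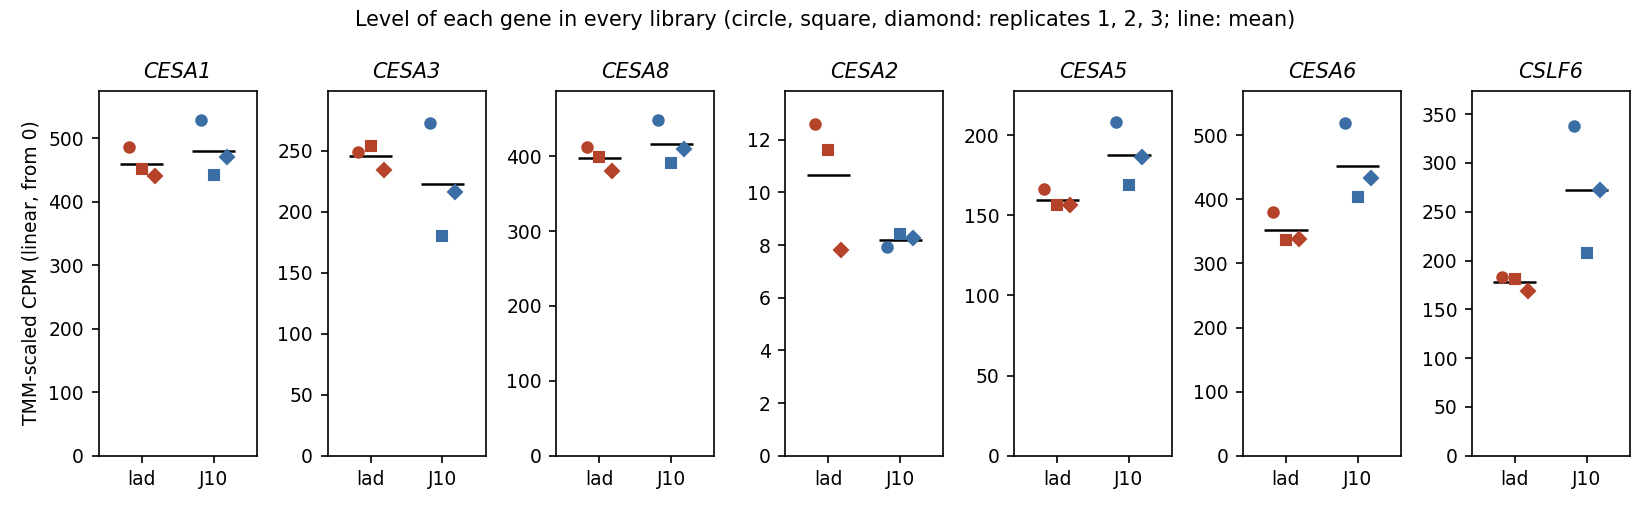
Level of each of the 7 genes in TMM-scaled CPM (linear axis from 0, with its own range per gene) in 3 lad and 3 J10 libraries; symbols are replicates 1 to 3 and the line is the mean. The lad points of CESA5, CESA6 and CSLF6 all lie below the J10 points, and the lad points are the more tightly grouped in every gene except CESA2.

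CESA1 encodes a catalytic subunit of the primary-wall complex and had the highest level of the set. It measured 486, 452 and 441 CPM in lad replicates 1, 2 and 3, and 528, 443 and 470 CPM in J10 replicates 1, 2 and 3. The groups overlapped, with J10 replicates 2 and 3 both below lad replicate 1. The log2 fold change was -0.06 ± 0.12 (SE, n = 3 libraries per genotype), with a 95% interval from -0.32 to 0.19 (adjusted p = 0.685, edgeR quasi-likelihood). That interval bounds the level in lad between 0.80 and 1.14 times that in J10. With library totals as the only scaling the estimate turned to 0.02.

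CESA8, another subunit of the same kind, ran beside CESA1. It stood at 412, 399.5 and 380.2 CPM in lad replicates 1, 2 and 3, against 448, 391 and 409 CPM in J10 replicates 1, 2 and 3. The ranges overlapped, with J10 replicates 2 and 3 both below lad replicate 1. Its log2 fold change was -0.07 ± 0.11 (95% interval -0.31 to 0.18, adjusted p = 0.647, edgeR quasi-likelihood) and turned to 0.02 with library totals.

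CESA3, also a catalytic subunit, was less steady among the wild-type libraries. It had 249, 254 and 234 CPM in lad replicates 1, 2 and 3, and 273, 180.4 and 216 CPM in J10 replicates 1, 2 and 3. The narrow lad range lay inside the J10 range. The log2 fold change of 0.14 ± 0.15 (95% interval -0.18 to 0.46) did not pass (adjusted p = 0.462, edgeR quasi-likelihood). Without J10 replicate 2 it was -0.01, and without J10 replicate 1 it was 0.28 (adjusted p = 0.0869, edgeR quasi-likelihood).

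CESA2 was far below the rest, with 151 to 233 counts in a library. Its level was 12.6, 11.6 and 7.82 CPM in lad replicates 1, 2 and 3, against 7.92, 8.42 and 8.27 CPM in J10 replicates 1, 2 and 3. Lad replicates 1 and 2 stood above all J10 libraries, and lad replicate 3 below all of them. The coefficient of variation was 23.6% in lad and 3.15% in J10, where counting error alone gives about 7.57% at this depth. The log2 fold change of 0.38 ± 0.20 (95% interval -0.07 to 0.83) did not pass (adjusted p = 0.155, edgeR quasi-likelihood). Leaving out lad replicate 3 brought it to 0.56 and past the threshold (adjusted p = 0.0333, edgeR quasi-likelihood), so that 1 library decides whether CESA2 is called.

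CESA5 and CESA6, the remaining 2 CESA genes, were both lower in every lad library than in any J10 library. CESA5 measured 166, 156 and 157 CPM in lad replicates 1, 2 and 3, and 208, 169 and 186 CPM in J10 replicates 1, 2 and 3. The gap between the groups was small, from 166 in the highest lad library to 169 in the lowest J10 library. Its log2 fold change of -0.23 ± 0.11 (95% interval -0.48 to 0.01) did not pass (adjusted p = 0.105, edgeR quasi-likelihood), but did without J10 replicate 2 (-0.33, adjusted p = 0.0409, edgeR quasi-likelihood).

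CESA6 had 381, 337 and 339 CPM in lad replicates 1, 2 and 3, against 519, 403 and 433 CPM in J10 replicates 1, 2 and 3. Every lad library was below every J10 library, and J10 replicate 1 stood well above the other 5 libraries. The log2 fold change was -0.36 ± 0.13 (95% interval -0.64 to -0.08, adjusted p = 0.0405, edgeR quasi-likelihood). The call was lost without J10 replicate 1 or 3 or any 1 lad replicate (adjusted p from 0.0572 to 0.118, edgeR quasi-likelihood). It was also lost with library totals (adjusted p = 0.127). The estimate stayed negative, from -0.46 to -0.27, under all 15 alternatives.

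CSLF6, the mixed-linkage glucan synthase, had the larger difference of the 2 genes that passed. It measured 183, 181 and 169 CPM in lad replicates 1, 2 and 3, and 338, 208 and 272 CPM in J10 replicates 1, 2 and 3. The 3 lad libraries were close together and all below the J10 libraries, which were spread 1.63-fold. The log2 fold change was -0.62 ± 0.16 (95% interval -0.97 to -0.27, adjusted p = 0.00933, edgeR quasi-likelihood), that is 0.65 times the J10 level with an interval from 0.51 to 0.83. It passed under all 15 alternatives, with estimates from -0.80 without J10 replicate 2 to -0.47 without J10 replicate 1 and adjusted p up to 0.0423. Of all tested genes, 37.8% had a larger absolute fold change.

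**Figure D2:**
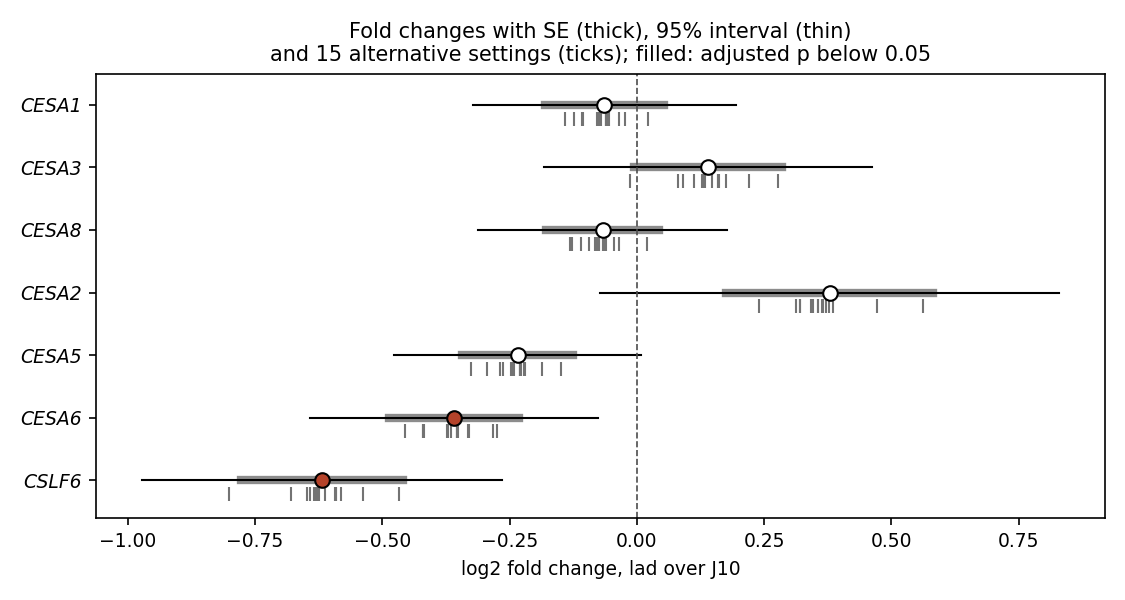
Log2 fold change of each gene, lad over J10, from edgeR (circle), with its SE (thick bar), its 95% interval (thin bar) and the estimates under 15 alternative settings (ticks under each bar). The intervals of CESA6 and CSLF6 lie below 0, and CESA1, CESA3 and CESA8 have ticks on both sides of 0.

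Groups without overlap between the genotypes were found for 3 of the 7 genes, CESA5, CESA6 and CSLF6, all lower in lad. Of all tested genes 56.8% did not overlap, and 26.6% did so as lower in lad. The 3 genes are 42.9% of the set, below the 56.8% for either direction and above the 26.6% for lower in lad.

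The wild-type libraries varied together. For 6 of the 7 genes, all except CESA2, J10 replicate 1 was the highest and J10 replicate 2 the lowest of the wild-type libraries, an order that 27.7% of all tested genes shared. Among the 17 other tested genes described as cellulose synthase, 7 had the same order. The coefficient of variation was larger in J10 than in lad for the same 6 genes. For CSLF6 it was 4.48% in lad and 23.8% in J10, for CESA3 4.26% in lad and 20.8% in J10, and for CESA8 4.03% in lad and 7.01% in J10.

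Levels were next compared between genes, as CPM per kb of gene length. The order in lad was CESA1 (113 ± 5.73), CESA8 (98.7 ± 3.98), CESA6 (85.7 ± 6.10), CESA3 (51.9 ± 2.21), CSLF6 (43.6 ± 1.95), CESA5 (36.6 ± 1.28) and CESA2 (2.38 ± 0.562; mean ± SD, n = 3). In J10 the order was CESA1 (118 ± 10.7), CESA6 (109.9 ± 14.6), CESA8 (103 ± 7.25), CSLF6 (66.9 ± 16.0), CESA3 (47.1 ± 9.81), CESA5 (43.1 ± 4.53) and CESA2 (1.83 ± 0.0575). Across libraries, neighbours in the lad order did not overlap, from CESA1 at 108 to 119 and CESA8 at 94.5 to 102 down to CSLF6 at 41.3 to 44.99 and CESA5 at 35.8 to 38.1. In J10 the ranges of CESA1, CESA6 and CESA8 overlapped, as did those of CSLF6 with CESA3 and of CESA3 with CESA5.

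The places of 2 of the 21 pairs were exchanged between the genotypes in the order of mean levels. Both pairs were picked out after their values were seen. How often other pairs of genes exchange places was not counted, so the exchange cannot be read as particular to this set. Among all pairs of genes with a mean of at least 5 CPM, 61.5% had ratios that did not overlap between the genotypes. CESA8 over CESA6, as a ratio of CPM per kb within a library, was 1.10, 1.21 and 1.15 in lad replicates 1, 2 and 3, and 0.883, 0.990 and 0.965 in J10 replicates 1, 2 and 3. CESA8 thus exceeded CESA6 in each lad library and in no J10 library. For CESA3 over CSLF6 the ratio was 1.17, 1.21 and 1.19 in lad replicates 1, 2 and 3, and 0.694, 0.747 and 0.684 in J10 replicates 1, 2 and 3. CESA3 exceeded CSLF6 in each lad library and CSLF6 exceeded CESA3 in each J10 library. Such a ratio does not depend on how libraries are scaled to each other, but its distance from 1 depends on the gene lengths used.

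**Figure D3:**
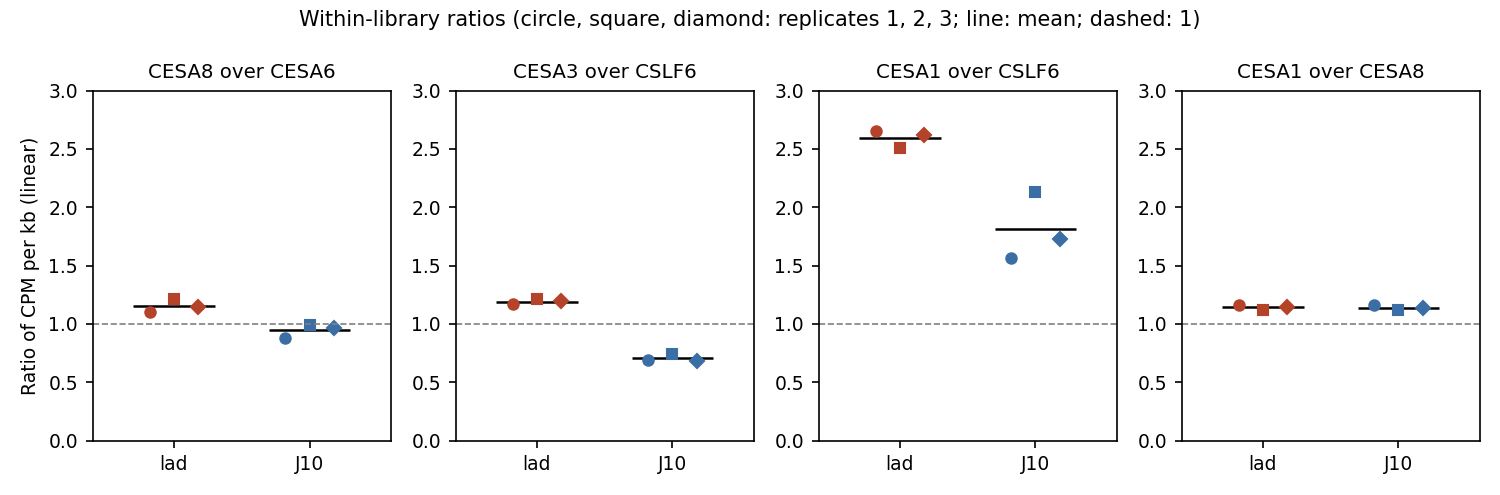
Ratios of CPM per kb within a library for 4 pairs of genes (linear axis from 0) in 3 lad and 3 J10 libraries; symbols are replicates 1 to 3, the line is the mean and the dashed line marks 1. CESA8 over CESA6 and CESA3 over CSLF6 lie above 1 in lad and below 1 in J10, while CESA1 over CESA8 is at 1.12 to 1.17 in all 6 libraries.

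Of the 21 pairs among the 7 genes, 14 (66.7%) had ratios that did not overlap between the genotypes, against 61.5% of all pairs of genes with a mean of at least 5 CPM. Each of the 14 reached an exact two-sided permutation p of 0.10, the smallest that 3 against 3 libraries allow, so none can pass a threshold of 0.05. CSLF6 was lower in lad relative to CESA1, CESA3, CESA8, CESA2 and CESA5, and its ratio overlapped only with CESA6. CESA1 over CSLF6 was 2.65, 2.50 and 2.62 in lad replicates 1, 2 and 3, against 1.57, 2.13 and 1.73 in J10 replicates 1, 2 and 3. Every lad value was above every J10 value.

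The ratio of CESA1 to CESA8 varied little over the 6 libraries. It was 1.17, 1.12 and 1.15 in lad replicates 1, 2 and 3, and 1.17, 1.12 and 1.14 in J10 replicates 1, 2 and 3. The SD of their log2 ratio over the 6 libraries was 0.027. When 16311 other genes with a mean of at least 5 CPM were ordered by the SD of their log2 ratio to CESA1, CESA8 was second, and CESA1 was second in the order for CESA8. CESA5 and CESA6 formed the next closest pair, with an SD of 0.081, CESA5 being 30th of 16311 for CESA6 and CESA6 83rd for CESA5. By contrast, CESA3 over CESA8 had an SD of 0.18 and CESA1 over CSLF6 of 0.33. These pairs were picked out after their values were seen, and the 6 libraries that set the SDs hold both genotypes. The ranks also depend on abundance. Counting error alone is about 1.07% for CESA1 and 1.15% for CESA8, but 7.57% for the weakly expressed CESA2. A very low SD is thus open mainly to abundant genes, and no ranks among genes of like level were taken.

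The summed level of the 7 genes was 453, 429 and 414 CPM per kb in lad replicates 1, 2 and 3, and 557, 434 and 479 CPM per kb in J10 replicates 1, 2 and 3. The groups overlapped, and the mean in lad was 88.1% of that in J10. For the 6 CESA genes alone the sum was 408, 384 and 372 CPM per kb in lad, and 474, 383 and 413 CPM per kb in J10. CSLF6 amounted to 11.03, 11.54 and 11.10% of the summed CESA level in lad replicates 1, 2 and 3, against 17.5, 13.3 and 16.2% in J10 replicates 1, 2 and 3. Here the groups did not overlap.

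Shares of the summed level of the 7 genes shifted in the same way. CSLF6 made up 10.1 ± 0.221% in lad and 13.5 ± 1.598% in J10, and CESA6 19.8 ± 0.684% in lad and 22.4 ± 0.380% in J10 (mean ± SD, n = 3). CESA1 made up 26.2 ± 0.226% in lad and 24.1 ± 0.895% in J10, CESA8 22.9 ± 0.280% in lad and 21.2 ± 1.21% in J10, and CESA3 12.0 ± 0.456% in lad and 9.54 ± 0.773% in J10. For these 5 genes the shares did not overlap between the genotypes, though the levels of CESA1, CESA3 and CESA8 did. Shares within other sets of genes were not counted for comparison. In level, 56.8% of all tested genes did not overlap. CESA5 held 8.48 ± 0.170% in lad and 8.80 ± 0.200% in J10, and CESA2 0.548 ± 0.110% in lad and 0.378 ± 0.0583% in J10, with overlap for both. Shares sum to a fixed total, so a lower share of 1 gene raises the others, and no test was made on them.

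**Figure D4:**
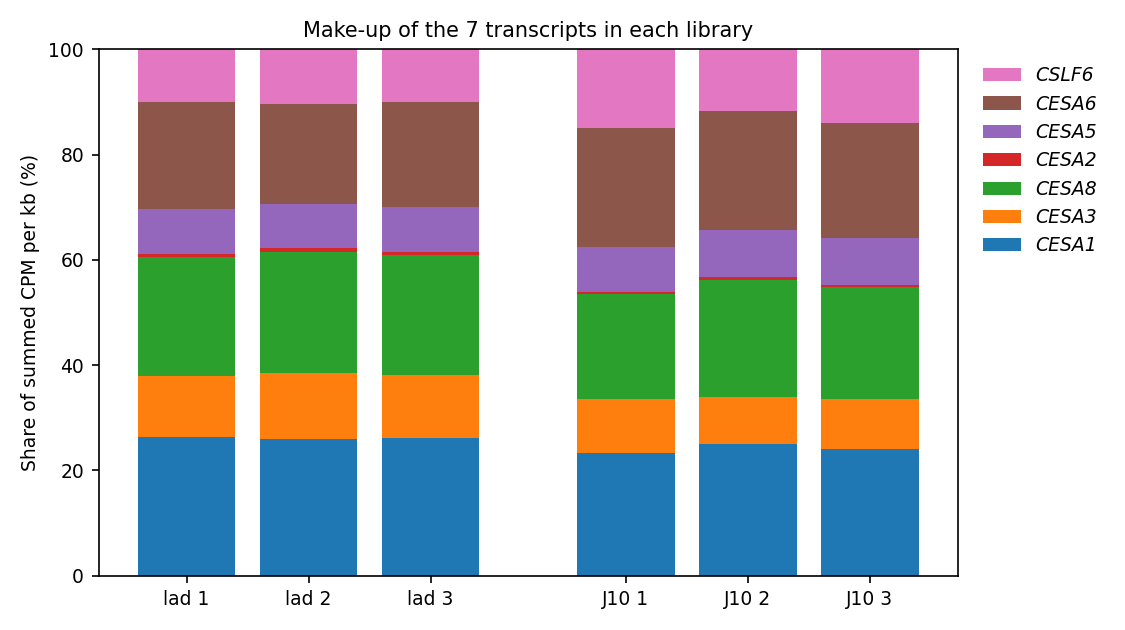
Share of each gene in the summed CPM per kb of the 7 genes (percent, stacked to 100) for each lad and J10 library. CSLF6, at the top, takes 9.94 to 10.3% in lad and 11.8 to 14.9% in J10, and CESA6 takes 19.1 to 20.5% in lad and 21.98 to 22.65% in J10.

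A further 25 genes in the table are described as cellulose synthase, a domain name that does not show which polymer a product makes. The 7 genes held 71.9 to 76.3% of the summed CPM per kb of all 32 in lad libraries, and 73.9 to 78.0% in J10 libraries. For comparison with the counts that follow, 24.9% of all tested genes were called higher and 20.3% lower. Of the 25, 17 were tested, with 4 higher and 1 lower in lad and a median log2 fold change of -0.11, while 8 were below the filter and 2 of these had 0 counts in all libraries. The most abundant, LOC_Os01g54620, had 31.6 CPM per kb in lad and 34.0 in J10, below 6 of the 7 genes. It measured 125, 89.2 and 115 CPM in lad replicates 1, 2 and 3, and 173, 68.4 and 113 CPM in J10 replicates 1, 2 and 3, with the J10 order seen above and a wider spread (log2 fold change -0.11 ± 0.27, adjusted p = 0.773, edgeR quasi-likelihood).

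LOC_Os10g20090 was the only other family gene called with a mean of at least 5 CPM over all 6 libraries. It had 40.8, 38.0 and 39.4 CPM in lad replicates 1, 2 and 3, against 32.5, 21.6 and 24.3 CPM in J10 replicates 1, 2 and 3. All lad libraries were above all J10 libraries (log2 fold change 0.59 ± 0.15, adjusted p = 0.00838, edgeR quasi-likelihood), though without J10 replicate 3 the adjusted p was 0.0519 (edgeR quasi-likelihood). The other 4 called genes, named after their values were seen, were weakly expressed. LOC_Os10g42750 averaged 5.73 CPM in lad and 1.96 CPM in J10 and LOC_Os09g30120 2.72 CPM in lad and 0.405 CPM in J10. LOC_Os10g20260 averaged 0.975 CPM in lad and 0.296 CPM in J10, and its call (adjusted p = 0.0372) did not survive the removal of any 1 library other than J10 replicate 1, with edgeR quasi-likelihood adjusted p from 0.0523 to 0.169, and was lost with DESeq2 (0.0733) and with no filter on low counts (0.0647). LOC_Os07g36630 fell to 0.249 CPM in lad, with 5, 8 and 0 counts, against 2.43 CPM in J10, with 61, 40 and 38 counts (adjusted p = 0.00265, edgeR quasi-likelihood). Without lad replicate 2 its log2 fold change was -4.13 and without lad replicate 3 -2.69, in place of -3.29. It is 1 of 7 family genes that lie together on chromosome 7 between 21901505 and 22019184.

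**Figure D5:**
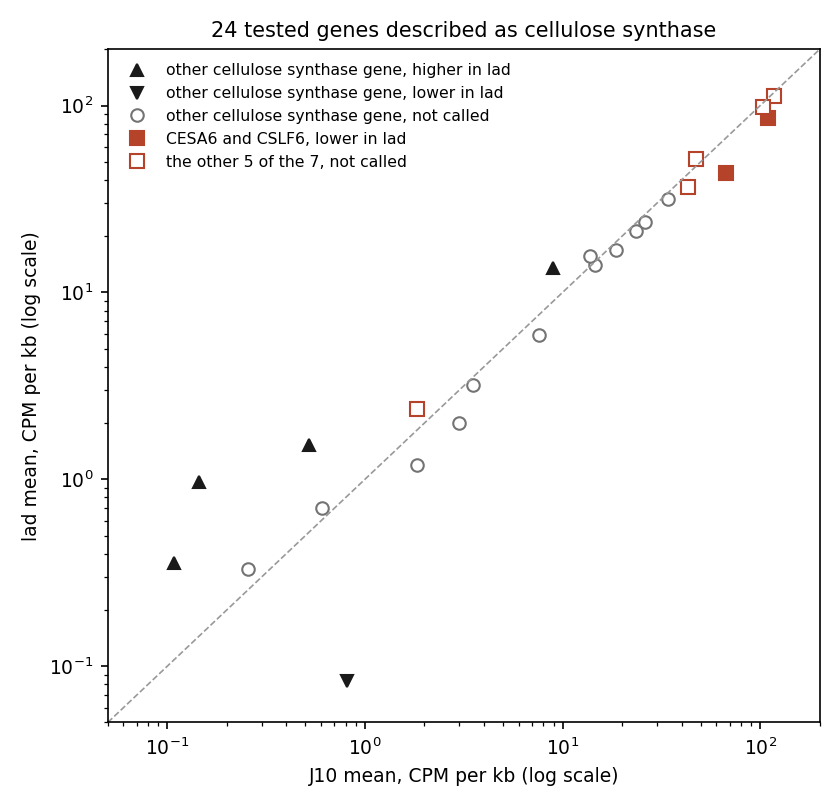
Mean level of the 24 tested genes described as cellulose synthase in lad and in J10, both in CPM per kb on log axes; squares are the 7 genes of this set and the dashed line marks equal levels. The 4 genes called higher in lad lie at 13.5 CPM per kb or less in lad, while CESA6 and CSLF6 lie below the line at the high end.

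Genes whose products feed, guide or accompany cellulose synthesis were listed by their deposited descriptions. The counts in this list and those that follow stand beside 24.9% higher and 20.3% lower among all tested genes. Among 6 genes of the UDPGP family, which includes enzymes making the UDP-glucose that CESA proteins use, 1 was higher and 3 lower in lad, with a median log2 fold change of -0.38. LOC_Os04g52370 had 109.9, 93.6 and 98.0 CPM in lad replicates 1, 2 and 3, against 237, 130.5 and 179.5 CPM in J10 replicates 1, 2 and 3, without overlap (log2 fold change -0.86 ± 0.18, adjusted p = 0.00348, edgeR quasi-likelihood). LOC_Os02g02560 averaged 8.07 CPM in lad and 13.2 CPM in J10 (adjusted p = 0.0225, edgeR quasi-likelihood), and its call was lost without lad replicate 1 or 3 or J10 replicate 1 and with library totals (adjusted p from 0.0504 to 0.0829). It overlaps LOC_Os02g02550 on the opposite strand, so its level is uncertain. LOC_Os06g48760 averaged 44.9 CPM in lad and 31.5 CPM in J10 (adjusted p = 0.0153, edgeR quasi-likelihood), a call lost without lad replicate 3 (0.0502, log2 fold change 0.32 in place of 0.51) or J10 replicate 3 (0.0554).

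Sucrose synthase, which can supply UDP-glucose from sucrose, gives its name to a domain described for 11 tested genes. Of these 5 were higher and 1 lower in lad, with a median log2 fold change of 0.28. LOC_Os06g09450 measured 482, 478 and 561 CPM in lad replicates 1, 2 and 3, against 325, 226 and 259.6 CPM in J10 replicates 1, 2 and 3, without overlap (log2 fold change 0.91 ± 0.15, adjusted p = 0.000638, edgeR quasi-likelihood). LOC_Os03g22120 averaged 22.8 ± 1.94 CPM in lad and 3.64 ± 0.340 CPM in J10 (log2 fold change 2.64, adjusted p = 1.14e-06, edgeR quasi-likelihood). The lower gene, LOC_Os02g58480, averaged 15.5 CPM in lad and 20.7 CPM in J10 (adjusted p = 0.043, edgeR quasi-likelihood). Its call was lost without lad replicate 1 or 2 or J10 replicate 1 or 3 and with library totals (adjusted p from 0.0753 to 0.141), and it overlaps LOC_Os02g58490 on the opposite strand.

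Cellulose synthase complexes travel along cortical microtubules, and of 30 tested genes with tubulin in their description, among them tubulin chaperones and gamma-tubulin complex proteins, 1 was higher and 15 lower in lad (median log2 fold change -0.38). The summed level of this list was 6383 to 7003 CPM in lad against 9708 to 10179 CPM in J10. Tubulin genes are also used in dividing cells, whose listed genes were lower in lad, and the part of this in the tubulin counts was not tested. LOC_Os01g59150 averaged 261 ± 20.02 CPM in lad and 575 ± 22.7 CPM in J10 (log2 fold change -1.14, adjusted p = 2.2e-05, edgeR quasi-likelihood), and LOC_Os03g56810 92.2 ± 5.27 CPM in lad and 171 ± 16.2 CPM in J10. The exception was LOC_Os03g11970, which averaged 32.6 ± 4.83 CPM in lad and 7.59 ± 1.504 CPM in J10 (log2 fold change 2.10, adjusted p = 7.69e-06, edgeR quasi-likelihood).

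Of 9 tested COBRA genes, whose family includes anchored proteins needed for orderly cellulose deposition, 3 were higher and 2 lower in lad (median log2 fold change 0.32). LOC_Os10g35460 had 64.7, 66.4 and 62.2 CPM in lad replicates 1, 2 and 3, against 28.7, 29.9 and 27.5 CPM in J10 replicates 1, 2 and 3. LOC_Os07g41320 had 32.6, 30.0 and 32.7 CPM in lad replicates 1, 2 and 3, against 57.5, 50.5 and 52.2 CPM in J10 replicates 1, 2 and 3. For both the genotypes were fully separate, in opposite directions. The other lower gene, LOC_Os03g30250, averaged 9.53 CPM in lad and 17.4 CPM in J10 with overlapping libraries (adjusted p = 0.0444, edgeR quasi-likelihood). It overlaps LOC_Os03g30260 on the opposite strand, and of the 6 fits without 1 library its call held only in that without J10 replicate 2. The call was also lost with library totals (0.0863), limma voom (0.103) and limma-trend (0.0804), and without J10 replicate 1 the log2 fold change was -0.50 in place of -0.87.

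No description named glycoside hydrolase family 9, the family of the membrane-bound endoglucanase KORRIGAN that takes part in cellulose synthesis, and its superfamily, the six-hairpin glycosidases, was read in its place. Of 24 tested six-hairpin genes 3 were higher and 7 lower in lad (median log2 fold change 0.08). LOC_Os08g02220 averaged 26.9 ± 3.99 CPM in lad and 84.2 ± 9.18 CPM in J10 (log2 fold change -1.65, adjusted p = 5.58e-06, edgeR quasi-likelihood), and LOC_Os04g57860 5.04 ± 0.356 CPM in lad and 16.3 ± 1.51 CPM in J10. LOC_Os01g70950, which overlaps LOC_Os01g70940 on the opposite strand, averaged 7.91 CPM in lad and 3.67 CPM in J10 (adjusted p = 0.00733, edgeR quasi-likelihood). LOC_Os02g03120 averaged 8.25 CPM in lad and 4.83 CPM in J10 (adjusted p = 0.0364, edgeR quasi-likelihood), a call that held without J10 replicate 1 only when 1 library was left out (adjusted p otherwise 0.069 to 0.148) and was lost with upper-quartile factors (0.0507).

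Glycoside hydrolase family 19 holds chitinases and the chitinase-like proteins that in Arabidopsis affect cellulose assembly. Of 11 tested genes 8 were higher and 1 lower in lad, beside 24.9% and 20.3% of all tested genes. The median log2 fold change of the 11 was 1.80. LOC_Os03g04060 averaged 167 ± 32.9 CPM in lad and 10.4 ± 1.88 CPM in J10 (log2 fold change 3.999, adjusted p = 2.13e-07, edgeR quasi-likelihood), and LOC_Os05g33130 25.3 ± 9.13 CPM in lad and 5.21 ± 0.981 CPM in J10. The descriptions do not separate chitinases from chitinase-like proteins.

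Likeness to the set was measured, over the 6 libraries, as Pearson's r with the mean of the 7 genes' centred log2 CPM, among 9363 described genes with a mean of at least 5 CPM. The closest were LOC_Os05g15360, a ribosomal protein L13 gene (r = 0.980), LOC_Os02g56334, a protein kinase gene (0.973), and LOC_Os06g48940, a GHMP kinase gene (0.972). A DNA ligase gene, LOC_Os01g49180, and an XPG-I domain gene, LOC_Os09g35000, followed with r of 0.971 and 0.968. The 7 genes themselves had r from -0.00931 for CESA2 and 0.564 for CESA3 to 0.969 for CESA1 and 0.995 for CESA8. Each of the 7 is part of the mean it was compared with, so its r cannot be set against those of the other genes. Among the 7, the mean profile stands for CESA1 and CESA8 more than for CESA2 or CESA3. Genes that share the libraries share their genotype difference and their depth, and these values are a description.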

How the data were processed

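Root tip mRNA of 3 lad and 3 J10 libraries was read from 1 table of whole-number counts per gene, deposited by the authors with each gene's position, length and description. For the rice build, annotation, counting tool and use of strand, the sources used here give nothing. Per the submitters' processing notes, Bowtie 0.12.2 and mouse builds (mm8, mm9) are named. Reads of genes that overlap on opposite strands, or of near-identical family members, may therefore be misassigned.

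Counts were tested with edgeR 4.0.16 (filterByExpr, TMM factors of 0.924 to 1.04, quasi-likelihood test, genotype as the only term, 4 residual degrees of freedom, common biological coefficient of variation 0.165). P-values were adjusted over 22624 genes by Benjamini-Hochberg, with a threshold of 0.05. SEs were derived from the fold change and its F statistic. The labels do not say whether libraries came from separate plants. The p-values thus set the genotype difference against the spread between these libraries, which may not be the spread between plants. In simulated data with the same means, 72 of 100 genes changed 2-fold and 94 of 100 changed 4-fold were recovered, with 14 false calls. Ratios and shares used CPM per kb of the deposited gene length. Log2 CPM used a prior count of 2.

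The members and gene lists were chosen with earlier results of these data known. Beside the 7 genes, the text names, for each list, the 2 highest and 2 lowest fold changes among called genes with a mean of at least 5 CPM, and others only as stated. Lists came from words in the deposited descriptions; 22573 of 56962 genes have one, and no description named glycosyl transferase family 2. Alternatives were other scalings, filters, DESeq2 1.42.0, limma 3.58.1 (voom and trend), the replicate number as a block, and leaving out each library. Sequences were not used here.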

Additional observations from a re-analysis of the deposited data

How the results depend on the processing

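CSLF6 was called lower under all 15 alternatives. The number of the 7 genes called, 2 by default, was 1 with library totals as the scaling, where CESA6 lost its call, and 1 to 3 when single libraries were left out. It was 3 without J10 replicate 2, where CESA5 was called lower as well, and without lad replicate 3 the 2 calls were CSLF6 as lower and CESA2 as higher. Log2 fold changes near 0 changed sign for CESA1 and CESA8 with library totals (0.0227 and 0.0199), and for CESA3 the estimate ran from -0.0127 without J10 replicate 2 to 0.277 without J10 replicate 1. The cause was not tested. Of the other cellulose synthase genes 5 were called, and 3 to 6 when single libraries were left out, with 3 without J10 replicate 3. All genes called numbered 7804 to 11191, and the median log2 fold change of all genes was 0.02 by default, 0.11 with library totals and -0.04 with upper-quartile factors. The summed level of the 7 genes in lad over J10 was 0.881 and ranged from 0.833 to 0.945. Same-numbered libraries had correlations of 0.0572, 0.129 and -0.0317 in their deviations from the group means, so the numbers were not taken to pair samples; with the replicate block 10648 genes were called, 10001 of them shared with the 10229 without it, and the same 2 of the 7 genes, while LOC_Os10g20260 lost its call (adjusted p = 0.0606, edgeR quasi-likelihood). Precision is limited by 3 libraries per genotype, and for CESA2 by 151 to 233 counts a library.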
